A study of Homo sapiens with 12 samples.

Results

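Proteoglycan core proteins are the protein backbones that carry glycosaminoglycan chains at the cell surface and in the extracellular matrix. Here 10 of their genes were described: DCN, BGN, LUM, VCAN, HSPG2, SDC1, SDC2, SDC4, GPC1 and GPC6. They were set as a list of gene names, drawn up with earlier results of these data known, and all 10 were found among the 32152 genes with RPKM values (reads per kilobase of gene length, scaled to library size). RNA was sequenced from MDA-MB-231 and Hs-578T, established triple-negative breast cancer cell lines with mesenchymal features. Of the 12 libraries, each line gave 6, with 2 from parental controls, 2 with the label ERK5-ko and 2 with the label MEK5DD. ERK5-ko cells were made with CRISPR/Cas9 guides against MAPK7, the gene of ERK5, and MEK5DD is MEK5, the kinase upstream of ERK5, in an always active form. The MDA-MB-231 cells labelled ERK5-ko came from a single surviving clone, while Hs-578T clones were kept for low ERK5 protein, and which was sequenced is not given in the sources used here, nor is how the MEK5DD cells were made. The parental controls were not engineered. They were taken at passages 29 and 30 in MDA-MB-231 and 83 and 84 in Hs-578T. The labels of all engineered cells give passages 7 to 11. The paper made the ERK5-ko cells from parental cells at higher passages than these, so the numbers do not share the parental scale. Where the count of engineered cells starts is not given in the sources used here. Passage, engineering and cloning cannot be told apart from the label in any comparison with parental controls.

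As background, core proteins fall into families by place and structure. Decorin (DCN), biglycan (BGN) and lumican (LUM) are small leucine-rich proteoglycans of the matrix that bind fibrillar collagen, and decorin also binds TGF-beta and growth factor receptors. Versican (VCAN) is a large hyaluronan-binding chondroitin sulfate proteoglycan, and perlecan (HSPG2) is a heparan sulfate proteoglycan of basement membranes. Syndecans (SDC1, SDC2, SDC4) span the membrane, and glypicans (GPC1, GPC6) are held on it by a lipid anchor. Members of both surface families act as co-receptors for heparin-binding growth factors and morphogens through their heparan sulfate chains. In breast tumours, decorin, lumican, biglycan and versican are known mainly as products of the stroma.

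The libraries held between 20248162 and 27791195 reads. With 2 libraries a group from consecutive passages of the same cells, p-values measure only the spread between such libraries. Where 1 library is left out, its group keeps 1, so the spread of that pair drops out of the p-values of every comparison. A gene is said to have passed at an adjusted p under 0.05 in limma over all 13737 genes tested, and to be called when its fold was also above 1.5 (higher) or below 0.5 (lower). MAPK7 RPKM values in MDA-MB-231 were 13.3 and 14.3 for parental cells, against 16.3 and 17.8 with the ERK5-ko label. In Hs-578T parental cells had 14.0 and 16.0, against 17.8 and 18.1 with the label. The RNA of MAPK7 was thus no lower under the label in either line. The paper reports, by Western blot, that ERK5 protein was strongly reduced in ERK5-ko cells of both lines. Its methods name qRT-PCR as a check of the clones too, but its text gives no MAPK7 value from it. The RPKM values here show no such fall in RNA. The RPKM of a whole gene does not show whether the guided exons were edited, so the label is used as given. MAP2K5, the gene of MEK5, had a mean RPKM of 186 in MDA-MB-231 MEK5DD against 13.2 in parental controls, and of 22.5 against 15.75 in Hs-578T, so the transgene label goes with a 14.1-fold difference in MDA-MB-231 and a 1.43-fold difference in Hs-578T. Vimentin (VIM) lay between 1600 and 4070 RPKM in all libraries, ESR1 and PGR did not exceed 0.348, and ERBB2 lay between 27.8 and 56.8. Of the epithelial markers, EPCAM lay between 7.08 and 25.7 in MDA-MB-231, where CDH1 did not exceed 0.65, and in Hs-578T they reached at most 0.0862 and 1.16. The leukocyte, endothelial and liver markers PTPRC, CDH5 and ALB did not exceed 0.396, whereas PECAM1, another endothelial gene, lay between 2.81 and 6.48 in Hs-578T.

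Parental Hs-578T had high levels of all 3 small leucine-rich genes and of VCAN and SDC2, while in parental MDA-MB-231 the first 4 were nearly absent and HSPG2, SDC1, SDC4 and GPC1 led. DCN and BGN had 1 read each over both parental MDA-MB-231 libraries, against 9918 to 12386 and 14346 to 15323 reads per library in parental Hs-578T. In such bulk samples fewer cells that express a gene cannot be told apart from less RNA per cell. With 3 reads per library as the floor, DCN was at least 4450-fold and BGN at least 5960-fold higher in Hs-578T, bounds that cover counting error only. The mean of LUM was 943-fold higher (0.661 against 623 RPKM), that of VCAN 1380-fold higher (0.123 against 171 RPKM) and that of SDC2 23.5-fold higher (23.5 against 552 RPKM) in Hs-578T. GPC6 (2.06 ± 0.148 against 7.91 ± 1.13 RPKM, SD, n = 2) and GPC1 (53.6 ± 1.34 against 119 ± 11.4 RPKM) were also higher in Hs-578T, by 3.84-fold and 2.22-fold. SDC4 was 1.55-fold higher in MDA-MB-231 (62.5 ± 0.976 against 40.4 ± 4.70 RPKM), and SDC1 did not pass (log2 difference 0.12, 95% interval −0.07 to 0.32, adjusted p = 0.218, limma) and was −0.11 with median-ratio scaling. HSPG2 did not pass either (0.41, interval −0.20 to 1.02, adjusted p = 0.195), and was −0.13 without Hs-578T parental replicate 1 and 0.95 without replicate 2.

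All 10 core proteins were among the genes tested. Between the parental lines 7 were called lower in MDA-MB-231, and SDC4 was the 1 called higher. DCN, BGN and VCAN stayed below 0.5 RPKM in every MDA-MB-231 library and were tested only through their Hs-578T values. For these genes a call of lower was fixed by the filter, so the count of 7 cannot be read against the shares of all genes. Over all genes, 46% passed higher and 31.3% passed lower, and 34.1% were called higher and 15.4% lower. The median log2 difference of all genes between the parental lines was 0.19 and became −0.02 with median-ratio scaling, under which 3624 genes were called higher and 2608 lower in place of 4679 and 2122, and SDC4 was no longer called.

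**Figure D1:**
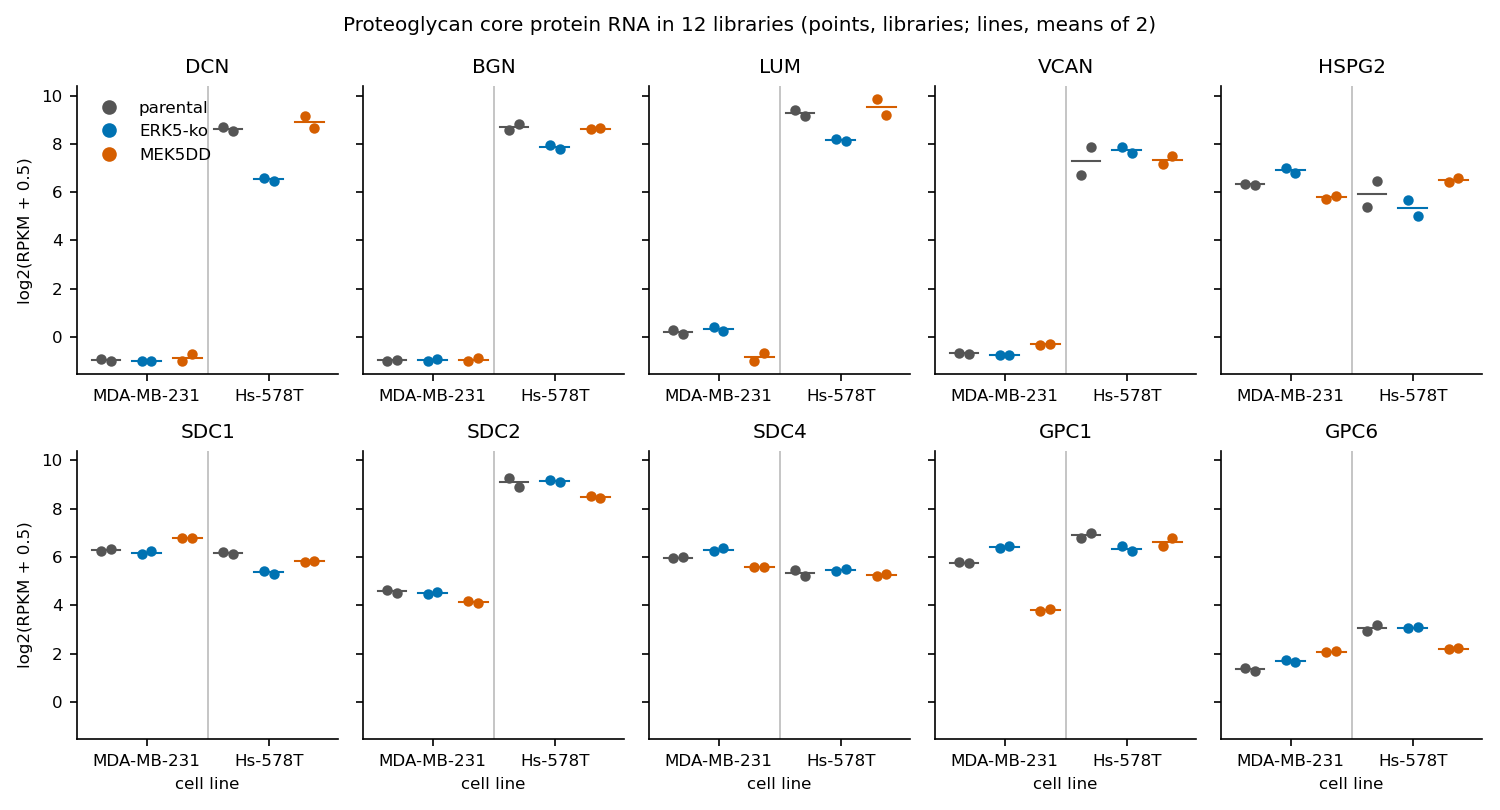
Level of each core protein gene, as log2(RPKM + 0.5), in every library of both lines; points are libraries, lines are means of the 2 libraries, and colours give the label. DCN, BGN and VCAN sit near the bottom of the scale in MDA-MB-231 and far above it in Hs-578T, and GPC1 is lowest in MDA-MB-231 MEK5DD (13.15 and 13.7 RPKM).

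Levels of different genes can be compared only per length, and the length used by the authors equals the mean over a gene's annotated transcripts within 0.1% for 87.2% of 31584 genes. For HSPG2, DCN and SDC2 the longest GENCODE 29 transcript was 8.37, 5.56 and 3.15 times as long as that, so the order of members within a library depends on the choice. By RPKM the order in parental MDA-MB-231 was HSPG2 (80.2), SDC1 (77.95), SDC4 (62.5), GPC1 (53.6) and SDC2 (23.5), and per kilobase of the longest transcript it was SDC4 (62.4), SDC1 (38.4), GPC1 (25.3), HSPG2 (9.58) and SDC2 (7.46). In parental Hs-578T, LUM was highest on both scales, with 623 RPKM and 330.4 on the scale of the longest transcript. Neither scale changes a comparison of the same gene between libraries. Reads can also be summed over genes as RPM, which is RPKM before the division by length. The 10 genes together took 557 and 559 RPM in parental MDA-MB-231 and 3984 and 4386 in parental Hs-578T, where the 3 small leucine-rich genes alone took 2137 and 2239.

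**Figure D2:**
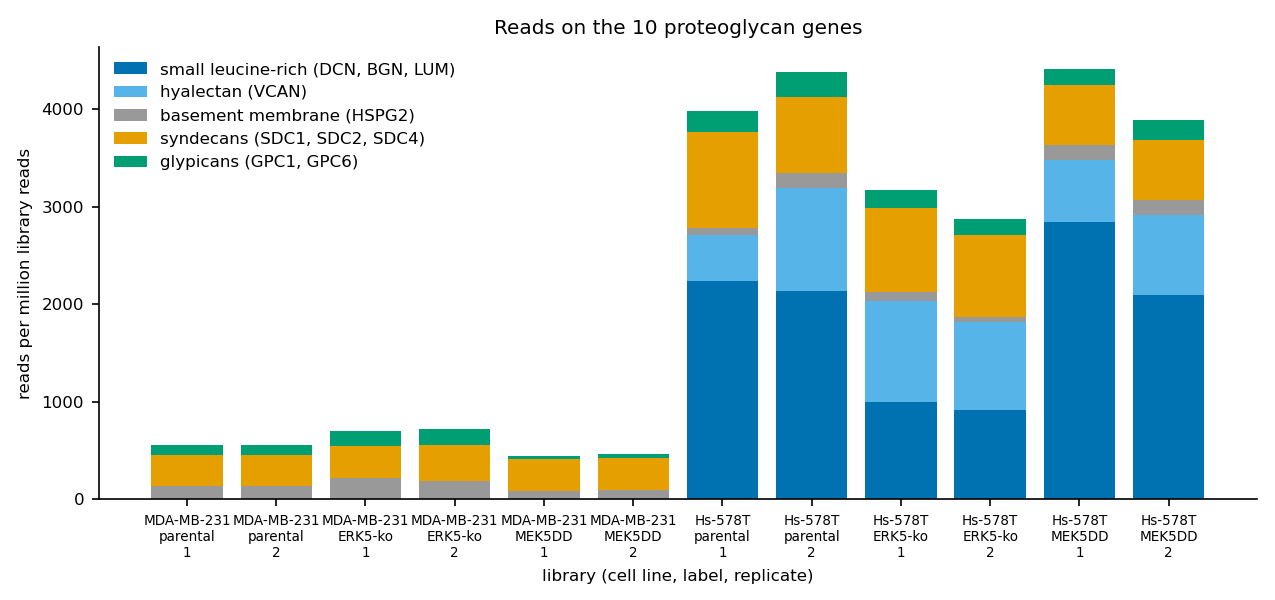
Reads on the 10 genes in each library, in RPM, stacked by family. The small leucine-rich genes (bottom) fall from 2137 and 2239 in parental Hs-578T to 919 and 1000 in the libraries labelled ERK5-ko and are hardly visible in MDA-MB-231.

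All 3 small leucine-rich genes fell in Hs-578T labelled ERK5-ko. DCN (ENSG00000011465.16, chromosome 12, 91140484 to 91183123 of GRCh38, minus strand) had RPKM values of 420.8 and 372 in parental Hs-578T, 96.25 and 88.1 in libraries labelled ERK5-ko, and 564 and 401 with MEK5DD. The libraries labelled ERK5-ko lay below all others of the line, whereas MEK5DD and parental values overlapped. DCN fell by 2.096 on the log2 scale with the ERK5-ko label (standard error 0.156, adjusted p = 2.41e-06), a 4.30-fold lower mean. With MEK5DD its log2 difference was 0.27 (interval −0.08 to 0.61, adjusted p = 0.25). That value rests on a wide pair: without MEK5DD replicate 2 it was 0.51. In MDA-MB-231 DCN had at most 4 reads in any library, so no fold is given.

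LUM, the neighbour of DCN on the same strand of chromosome 12 (ENSG00000139329.4, 91102629 to 91111831), lies 28652 bases from it. It had RPKM values of 670.0 and 576 in parental Hs-578T, 295 and 281 in libraries labelled ERK5-ko, and 926 and 583 with MEK5DD. The libraries labelled ERK5-ko were the low ones, as for DCN. LUM fell by 1.11 with the ERK5-ko label (standard error 0.191, adjusted p = 0.000893), and the log2 difference with MEK5DD was 0.24 (interval −0.18 to 0.66, adjusted p = 0.398). Without MEK5DD replicate 1 that difference was −0.09, and without replicate 2 it was 0.58. Without parental replicate 1, LUM fell by 0.9997 with the ERK5-ko label and was just short of the 0.5-fold limit. Among other genes of the table within 1500000 bases of the pair, ATP2B1 had 21.9 and 27.4 RPKM in parental Hs-578T against 33.6 and 41.7 with the ERK5-ko label, and BTG1 had 27.3 and 22.5 against 22.9 and 23.1.

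In MDA-MB-231, LUM was near the limit of detection. It had 29 and 26 reads (0.736 and 0.587 RPKM) in parental controls, 30 and 27 reads with the ERK5-ko label, and 0 and 6 reads with MEK5DD. The MEK5DD libraries lay below the other 4. The fitted log2 change with MEK5DD was −1.04 (adjusted p = 0.00104) with a pseudocount of 0.5 RPKM and −2.30 with one of 0.1, so its size depends on the pseudocount. It was not called, though it passed, without parental replicate 1 (−0.95) or without MEK5DD replicate 1 (−0.87).

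BGN (ENSG00000182492.15, chromosome X, 153494939 to 153509554, plus strand) showed the smallest change among DCN, LUM and BGN in Hs-578T labelled ERK5-ko. Its RPKM values in Hs-578T were 386 and 454 in parental controls, 249.6 and 219 with the ERK5-ko label, and 393 and 399 with MEK5DD. The libraries labelled ERK5-ko were again the lowest, with no overlap. BGN fell by 0.84 (standard error 0.110, adjusted p = 0.000142), a 1.79-fold lower mean that passed without being called, and with MEK5DD its log2 difference was −0.08 (interval −0.32 to 0.16, adjusted p = 0.657). BGN had at most 2 reads in any MDA-MB-231 library. Within each Hs-578T library the ratio of DCN to LUM was 0.628 and 0.645 in parental controls, 0.609 and 0.687 with MEK5DD and 0.327 and 0.313 with the ERK5-ko label, and that of DCN to BGN was 1.09 and 0.818, 1.43 and 1.0, and 0.386 and 0.402. DCN was thus lower relative to both LUM and BGN in the libraries labelled ERK5-ko, and the ratio of LUM to BGN was not computed. These ratios carry no test of their own.

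**Figure D3:**
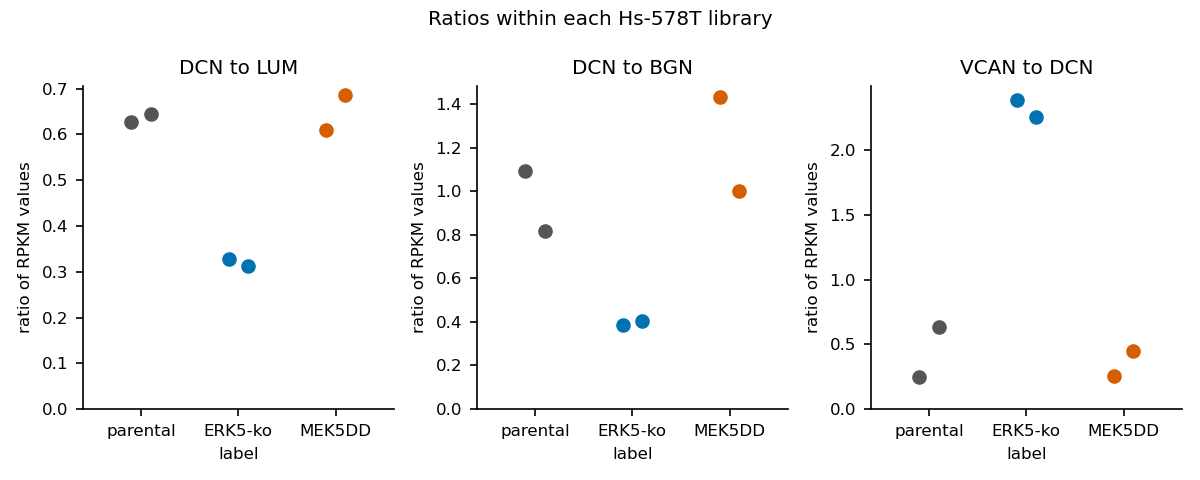
Ratios of RPKM values within each Hs-578T library for pairs of matrix core proteins; each point is a library. The points of the libraries labelled ERK5-ko stand apart, at 0.313 and 0.327 for DCN to LUM and at 2.26 and 2.39 for VCAN to DCN, against 0.251 and 0.634 for the last in parental controls.

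VCAN (ENSG00000038427.15, chromosome 5, 83471465 to 83582303, plus strand) did not follow the small leucine-rich genes. In Hs-578T it had RPKM values of 105.5 and 236 in parental controls, 230.5 and 199 with the ERK5-ko label, and 142 and 181 with MEK5DD. The parental libraries span 2.23-fold, the widest pair of any member in that line, and cover both other groups. The log2 difference was 0.44 with the ERK5-ko label (interval −0.16 to 1.04, adjusted p = 0.222) and 0.03 with MEK5DD (interval −0.57 to 0.62, adjusted p = 0.966). Both directions depended on which parental library was kept. The ERK5-ko difference was −0.14 without parental replicate 1 and 1.02 without replicate 2. The MEK5DD difference was −0.55 and 0.60 in turn, and −0.15 without MEK5DD replicate 2. Leaving out a parental library also takes the wide spread of that pair out of the fit. In MDA-MB-231 VCAN had 9 to 39 reads per library, 15 and 14 in parental controls, 9 and 10 with the ERK5-ko label, and 33 and 39 with MEK5DD, where it did not pass with a pseudocount of 0.5 (log2 0.38, adjusted p = 0.303). With a pseudocount of 0.1 it passed (0.87, adjusted p = 0.0289), as it did with only the MDA-MB-231 libraries in the fit (adjusted p = 0.000616). It also passed without Hs-578T parental replicate 1 or 2, where the spread of that wide pair is left out.

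HSPG2 (ENSG00000142798.16, chromosome 1, 21822245 to 21937297, minus strand) gave values in separate ranges in MDA-MB-231. They were 81.4 and 79.1 RPKM in parental controls, 126 and 112 with the ERK5-ko label, and 52.4 and 56.8 with MEK5DD. In Hs-578T they were 41.3 and 87.5, 50.2 and 31.9, and 85.4 and 94.4, and the parental pair again spans 2.12-fold. In the fit over all libraries, which share an estimate of spread, no comparison with parental controls passed. In MDA-MB-231 the log2 differences were 0.56 with the ERK5-ko label (adjusted p = 0.199) and −0.55 with MEK5DD (adjusted p = 0.139), and in Hs-578T −0.58 (adjusted p = 0.121) and 0.57 (adjusted p = 0.165). With only the MDA-MB-231 libraries in the fit, both MDA-MB-231 differences passed (adjusted p = 0.0092 and 0.00382), as they did without Hs-578T parental replicate 1 or 2. In Hs-578T the log2 difference was −1.118 with the ERK5-ko label without parental replicate 1. With MEK5DD it was 1.11 without parental replicate 2. All these fits leave out the spread of the wide Hs-578T parental pair.

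Differences between replicates moved with transcript length across the whole data set. Over 12399 genes, the difference between replicates 2 and 1 correlated with log transcript length with r = 0.567 in parental Hs-578T, 0.507 in Hs-578T MEK5DD and −0.436 in MDA-MB-231 labelled ERK5-ko, and between −0.136 and 0.141 in the other groups, a description across genes that are not independent. VCAN and HSPG2 have the longest transcripts of the members, with 12625 and 14327 bases. With this dependence on length taken out of each library, HSPG2 was called higher in MDA-MB-231 labelled ERK5-ko (0.67, adjusted p = 0.0291), passed lower in Hs-578T labelled ERK5-ko (−0.83, adjusted p = 0.00504) and passed higher in Hs-578T MEK5DD (0.58, adjusted p = 0.0495). VCAN then passed higher in MDA-MB-231 MEK5DD (0.45, adjusted p = 0.0479). The corrected values were chosen after seeing the data. Whether read coverage along the transcript differed between these libraries was not tested. Annotated exons of LDLRAD2 on the other strand cover 11.7% of the exonic bases of HSPG2, and LDLRAD2 did not exceed 0.0397 RPKM. Overlaps with other annotated genes were found for GPC6 (7.36%) and VCAN (3.05%) too, also on the other strand.

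Among the syndecans, SDC1 rose with MEK5DD in MDA-MB-231 and fell with either label in Hs-578T, SDC2 fell with MEK5DD in both lines, and SDC4 changed in MDA-MB-231. SDC1 (ENSG00000115884.10, chromosome 2, 20200797 to 20225433, minus strand), the main syndecan of epithelia, had RPKM values of 76.3 and 79.6 in parental MDA-MB-231, 68.4 and 75.6 with the ERK5-ko label and 109 and 111 with MEK5DD. In Hs-578T it had 74.4 and 68.7, 43.0 and 39.0, and 54.6 and 57.2. The MEK5DD libraries were the highest of MDA-MB-231 and lay below both parental libraries of Hs-578T. SDC1 rose by 0.50 in MDA-MB-231 MEK5DD (adjusted p = 0.000858) and fell by 0.35 in Hs-578T MEK5DD (adjusted p = 0.0147). With the ERK5-ko label it fell by 0.80 in Hs-578T (adjusted p = 4.39e-05), a 1.75-fold lower mean, and in MDA-MB-231 the log2 difference was −0.11 (interval −0.31 to 0.08, adjusted p = 0.429). The Hs-578T MEK5DD change did not pass without parental replicate 1 (adjusted p = 0.0774), with median-ratio scaling (adjusted p = 0.061), with quantile normalization (adjusted p = 0.0694) or with only the Hs-578T libraries (adjusted p = 0.096).

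SDC2 (ENSG00000169439.11, chromosome 8, 96493351 to 96611780, plus strand), a syndecan of mesenchymal cells, was lower with MEK5DD in both lines. Its RPKM values were 24.6 and 22.4 in parental MDA-MB-231, 21.75 and 22.9 with the ERK5-ko label and 17.4 and 16.8 with MEK5DD. In Hs-578T they were 623 and 481, 577.5 and 554, and 366 and 348. In both lines the MEK5DD libraries were the lowest, while those labelled ERK5-ko overlapped the parental ones. SDC2 fell by 0.45 in MDA-MB-231 MEK5DD (adjusted p = 0.0079) and by 0.62 in Hs-578T MEK5DD (adjusted p = 0.00285). Without MDA-MB-231 parental replicate 1 or MEK5DD replicate 2 the first did not pass (adjusted p = 0.077 and 0.0591), nor did the other with only the Hs-578T libraries (adjusted p = 0.0724). With the ERK5-ko label the log2 difference was −0.07 in MDA-MB-231 (interval −0.32 to 0.18, adjusted p = 0.738) and 0.05 in Hs-578T (interval −0.20 to 0.30, adjusted p = 0.774), and −0.14 in Hs-578T without parental replicate 2.

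SDC4 (ENSG00000124145.6, chromosome 20, 45325288 to 45348424, minus strand), the syndecan of focal adhesions, varied little in Hs-578T. Its RPKM values there were 43.75 and 37.1 in parental controls, 42.3 and 44.3 with the ERK5-ko label, and 36.8 and 38.5 with MEK5DD, and the groups overlapped the parental one. In MDA-MB-231 they were 61.9 and 63.2, 74.9 and 81.9, and 47.6 and 47.8, with no overlap. There SDC4 rose by 0.32 with the ERK5-ko label (adjusted p = 0.0359) and fell by 0.39 with MEK5DD (adjusted p = 0.0061). The rise did not pass when any 1 of the 6 MDA-MB-231 libraries was left out, or either Hs-578T library labelled ERK5-ko (adjusted p from 0.0533 to 0.223). In Hs-578T the log2 differences were 0.10 (interval −0.10 to 0.31) and −0.10 (interval −0.30 to 0.11). Without parental replicate 2 the first was −0.01, and without parental replicate 1 the other was 0.02.

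On the log2(RPKM + 0.5) scale, GPC1 changed most in MDA-MB-231 among the 8 members above the floor. With MEK5DD this order depends on the scale, since with a pseudocount of 0.1 the log2 change was −2.30 for LUM, which had at most 30 reads, and −1.99 for GPC1. GPC1 (ENSG00000063660.8, chromosome 2, 240435671 to 240468078, plus strand), a co-receptor for fibroblast growth factors, had RPKM values of 54.6 and 52.7 in parental MDA-MB-231, 83.3 and 87.9 in libraries labelled ERK5-ko, and 13.15 and 13.7 with MEK5DD. The 3 groups do not overlap, and the parental values lie between the other two. GPC1 rose by 0.67 with the ERK5-ko label (standard error 0.1203, adjusted p = 0.00329) and fell by 1.96 with MEK5DD (adjusted p = 2.2e-07), a 3.99-fold lower mean. In Hs-578T it had 111 and 127 RPKM in parental controls, 86.5 and 75.5 with the ERK5-ko label and 86.7 and 111 with MEK5DD. There it fell by 0.56 with the ERK5-ko label (adjusted p = 0.00371), which did not pass without ERK5-ko replicate 2 (adjusted p = 0.0508) or with only the Hs-578T libraries (adjusted p = 0.0523). With MEK5DD in Hs-578T the log2 difference was −0.28 (interval −0.54 to −0.01, adjusted p = 0.12), and it was −0.45 without MEK5DD replicate 2.

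GPC6 (ENSG00000183098.10, chromosome 13, 93226842 to 94407401, plus strand) moved in opposite directions with MEK5DD in the 2 lines. Its RPKM values were 2.17 and 1.96 in parental MDA-MB-231, 2.825 and 2.62 with the ERK5-ko label, and 3.72 and 3.76 with MEK5DD. In Hs-578T they were 7.115 and 8.71, 7.88 and 7.99, and 4.06 and 4.18. MEK5DD libraries were the highest in MDA-MB-231 and the lowest in Hs-578T, so that with MEK5DD the means of the lines were 3.74 and 4.12 RPKM. GPC6 rose by 0.73 in MDA-MB-231 MEK5DD (adjusted p = 0.00035) and fell by 0.86 in Hs-578T MEK5DD (adjusted p = 0.000436), a 1.92-fold lower mean that was not called. With the ERK5-ko label the log2 difference was 0.33 in MDA-MB-231 (interval 0.08 to 0.58, adjusted p = 0.0691) and 0.01 in Hs-578T (interval −0.24 to 0.26, adjusted p = 0.958). The first passed with several other settings, among them median-ratio scaling (adjusted p = 0.0367), with quantile normalization (0.0295), with only the MDA-MB-231 libraries (0.0299), and without Hs-578T parental replicate 1 or 2. The other was −0.13 without Hs-578T parental replicate 1.

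**Figure D4:**
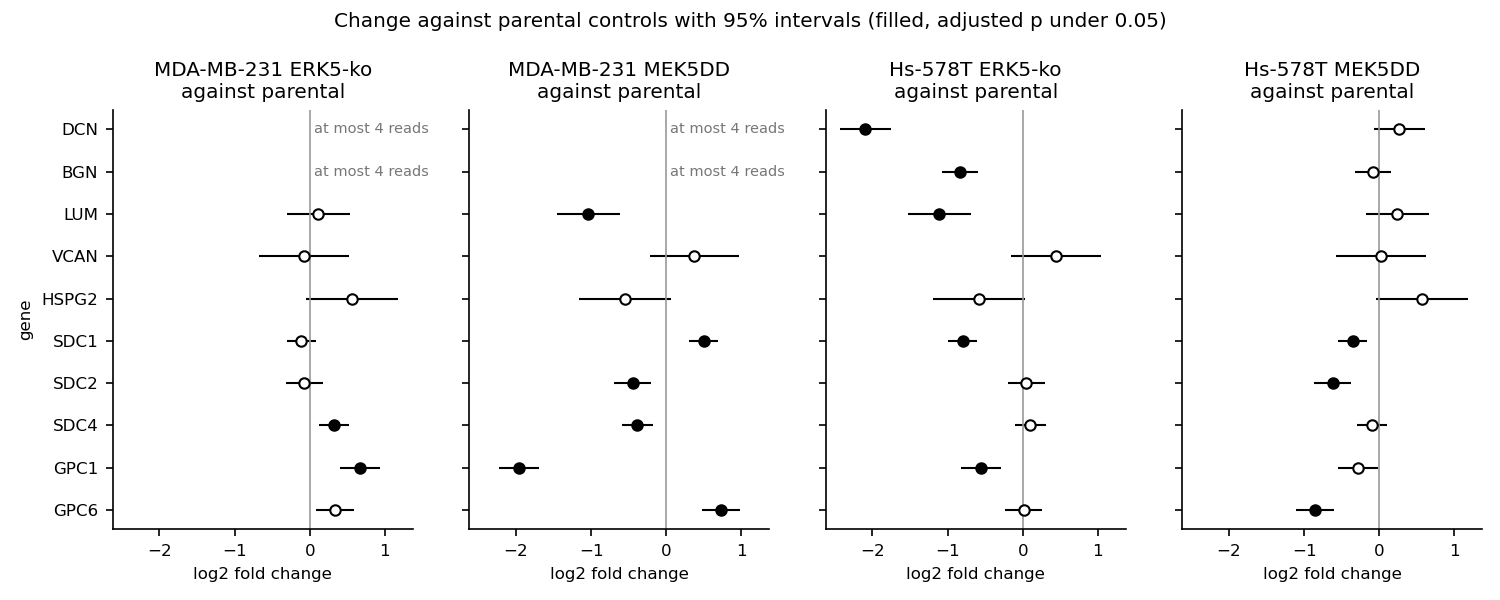
Log2 fold change of each gene against the parental controls of its line, with 95% intervals, from the fit over all 12 libraries; filled points have an adjusted p under 0.05. DCN (−2.096) in Hs-578T labelled ERK5-ko and GPC1 (−1.96) in MDA-MB-231 MEK5DD lie farthest to the left, and the intervals of VCAN and HSPG2 are the widest.

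Upstream sequence is shown for the 4 surface genes whose changes ran as pairs in MDA-MB-231: GPC1 and SDC4, higher with the ERK5-ko label and lower with MEK5DD, and SDC1 and GPC6, higher with MEK5DD. Each runs from 250 bases before to 50 after the start of a RefSeq transcript in GRCh38.p14, 5′ to 3′ on the strand of the gene. Entries were matched for 7 of the 10 members, not for DCN, LUM and SDC2. SDC1 had 2 entries, and its motif counts are for the sequence shown. Capitals mark motif matches: the GC box GGGCGG or its complement CCGCCC, or the TATA box TATAAA.
GPC1 (chr2:240435413-240435712, plus strand, 83.3% G or C): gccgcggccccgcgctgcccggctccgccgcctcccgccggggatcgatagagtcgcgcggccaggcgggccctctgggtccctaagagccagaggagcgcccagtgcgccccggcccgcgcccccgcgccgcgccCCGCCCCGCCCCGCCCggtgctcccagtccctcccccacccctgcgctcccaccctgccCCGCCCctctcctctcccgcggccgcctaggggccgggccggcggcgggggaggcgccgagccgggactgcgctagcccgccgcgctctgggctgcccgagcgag
SDC4 (chr20:45348375-45348674, minus strand, 74.0% G or C): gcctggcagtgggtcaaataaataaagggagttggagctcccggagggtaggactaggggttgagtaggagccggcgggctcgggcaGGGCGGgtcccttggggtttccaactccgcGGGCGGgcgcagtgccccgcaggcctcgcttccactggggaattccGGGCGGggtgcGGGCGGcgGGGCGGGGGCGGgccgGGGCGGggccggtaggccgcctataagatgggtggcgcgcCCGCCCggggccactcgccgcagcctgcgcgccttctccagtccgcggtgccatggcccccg
SDC1 (chr2:20225426-20225725, minus strand, 67.7% G or C): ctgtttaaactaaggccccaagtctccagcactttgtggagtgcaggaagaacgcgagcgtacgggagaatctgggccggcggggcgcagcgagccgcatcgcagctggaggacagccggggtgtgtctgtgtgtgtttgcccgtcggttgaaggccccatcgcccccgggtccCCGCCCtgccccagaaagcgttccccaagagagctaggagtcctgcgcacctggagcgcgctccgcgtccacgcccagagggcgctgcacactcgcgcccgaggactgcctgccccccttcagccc
GPC6 (chr13:93226557-93226856, plus strand, 40% G or C): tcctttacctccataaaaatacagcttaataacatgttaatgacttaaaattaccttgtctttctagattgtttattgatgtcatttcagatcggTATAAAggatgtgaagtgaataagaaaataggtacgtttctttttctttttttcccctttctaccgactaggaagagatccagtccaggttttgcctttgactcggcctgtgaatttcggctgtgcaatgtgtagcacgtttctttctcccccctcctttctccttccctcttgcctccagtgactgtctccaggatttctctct

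GC boxes were found 4 times for GPC1, 8 times for SDC4 and 1 time for SDC1, with overlapping matches counted. None was found for GPC6, which alone matched the letters TATAAA. Distance from the start was not part of the search, so a letter match does not show a working TATA box. Of all 35116 promoters of this length, 45% hold a GC box on either strand and 11.5% a TATA box. The AP-1 motif TGANTCA, held by 7.71% of promoters, and the MEF2 motif, CTA and TAG with any 4 bases between, held by 2.73%, were found in none of the 7 promoters of members. These letters were searched on both strands, the GC box and TATA box do not overlap in letters, and no match says only that the letters are not in this window.

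Counts over the members are set beside those over all genes. In MDA-MB-231 labelled ERK5-ko, 2 passed higher (GPC1 and SDC4) and none lower, of which GPC1 was called; DCN and BGN were at the floor, and the median log2 change of the other 8 was 0.22. Over all genes there, 6.91% passed higher and 10.4% lower, 2.8% were called higher and 1.07% lower, and the median was −0.04. With median-ratio scaling 1261 genes passed higher and 1127 lower in place of 949 and 1430. In MDA-MB-231 MEK5DD, 2 passed higher (SDC1, GPC6) and 4 lower (LUM, SDC2, SDC4, GPC1), with GPC6 called higher and GPC1 and LUM called lower, against 17.5% and 23.8% of all genes that passed and 7.64% and 6.31% that were called. With quantile normalization 3162 genes passed higher and 2812 lower in place of 2410 and 3263. The median of the 8 above the floor was −0.42 and that of all genes −0.01.

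In Hs-578T labelled ERK5-ko, none passed higher and 5 passed lower (DCN, BGN, LUM, SDC1, GPC1), with DCN and LUM called, while over all genes 19.7% passed in each direction, 9.35% were called higher and 3.27% lower. The median log2 change was −0.57 over the members and 0.01 over all genes. In Hs-578T MEK5DD none passed higher and 3 passed lower (SDC1, SDC2, GPC6), none called. Over all genes 6.44% passed higher and 17% lower, 2.9% were called higher and 1.49% lower, and the medians were −0.09 for the members and −0.08 for all genes. With median-ratio scaling 1290 genes passed higher and 1630 lower in place of 884 and 2329. The comparisons of a line share its parental controls, so they are not independent.

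Libraries labelled ERK5-ko were also set directly against MEK5DD. Both were engineered, with labelled passages of 7 to 11. How the MEK5DD cells were made is not given, so cloning and the way of engineering cannot be told apart from the label here either. In MDA-MB-231, LUM (1.15), HSPG2 (1.116), SDC4 (0.71) and GPC1 (2.63) were called higher with the ERK5-ko label, SDC2 passed higher (0.38), and SDC1 (−0.61) and GPC6 (−0.40) passed lower. VCAN (−0.46, adjusted p = 0.177) passed only with other settings, among them leaving out Hs-578T parental replicate 1 or 2, which drops the wide spread of that pair. GPC1 differed most on the log2(RPKM + 0.5) scale, with a 6.37-fold ratio of means (85.6 against 13.5 RPKM, adjusted p = 1.08e-08), while the ratio of means was 11.1 for LUM, on at most 30 reads. SDC2 and GPC6 did not pass without ERK5-ko replicate 2 (adjusted p = 0.083 and 0.0719), MEK5DD replicate 1 (0.0515 and 0.0519) or MEK5DD replicate 2 (0.0817 and 0.0588). Over all genes 27.1% passed higher and 27.9% lower, and 17.5% were called higher and 6.12% lower.

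In Hs-578T, DCN (−2.36), LUM (−1.35) and HSPG2 (−1.16) were called lower with the ERK5-ko label than with MEK5DD, and BGN (−0.76) and SDC1 (−0.44) passed lower. SDC2 (0.67) and GPC6 (0.87) were called higher. DCN differed most, with a 5.23-fold lower mean (adjusted p = 4.81e-07). HSPG2 did not pass without ERK5-ko replicate 2 (adjusted p = 0.0737). VCAN (0.42) passed only where the wide Hs-578T parental pair lost replicate 1 or 2, and GPC1 (−0.28) was −0.45 without MEK5DD replicate 1. Over all genes 30.7% passed higher and 19.2% lower, and 15.3% were called higher and 3.96% lower, and with median-ratio scaling 3227 passed higher and 3420 lower in place of 4224 and 2642.

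Whether a label went with different changes in the 2 lines was tested by the difference of the log2 changes, MDA-MB-231 minus Hs-578T. For the ERK5-ko label it was called higher for GPC1 (1.22, adjusted p = 0.000236), LUM (1.22, adjusted p = 0.00432), SDC1 (0.68, adjusted p = 0.00142) and HSPG2 (1.15, adjusted p = 0.0381), and the fitted values for DCN (2.05) and BGN (0.84) were also called but only restate the Hs-578T fall, since MDA-MB-231 had hardly any reads. With limma voom on the recovered reads DCN (adjusted p = 0.39), BGN (0.443) and LUM (0.12) did not pass. HSPG2 did not pass when any 1 of the 6 MDA-MB-231 libraries was left out (adjusted p from 0.0557 to 0.106), nor without Hs-578T parental replicate 2 (0.0847) or ERK5-ko replicate 2 (0.171). For GPC1 the libraries labelled ERK5-ko lay above the parental ones in MDA-MB-231 and beneath them in Hs-578T, without overlap in either line. VCAN (−0.52, adjusted p = 0.301) was −1.10 without Hs-578T parental replicate 2 and 0.05 without replicate 1, and GPC6 (0.32, adjusted p = 0.135) was 0.46 without Hs-578T parental replicate 1. SDC2 (−0.12) was 0.07 without Hs-578T parental replicate 2. Over all genes 18.3% passed higher and 21.5% lower, and 13.3% were called higher and 7.31% lower.

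For MEK5DD the difference was called higher for GPC6 (1.59, adjusted p = 2.24e-05) and SDC1 (0.85, adjusted p = 0.000304), and lower for GPC1 (−1.68, adjusted p = 2.16e-05), LUM (−1.28, adjusted p = 0.00309) and HSPG2 (−1.13, adjusted p = 0.0408). SDC1 and GPC6 thus moved oppositely in the lines with MEK5DD, though the SDC1 fall in Hs-578T did not pass with several settings, as given above. LUM in MDA-MB-231 rests on at most 30 reads per library, and HSPG2 did not pass without any of 9 libraries, with adjusted p from 0.0573 to 0.111. For SDC2, which fell in both lines, the difference was 0.17 (interval −0.18 to 0.52, adjusted p = 0.429), and −0.02 without Hs-578T parental replicate 1. VCAN (0.35, adjusted p = 0.504) was 0.93 without Hs-578T parental replicate 1 and −0.23 without replicate 2, and SDC4 (−0.29, adjusted p = 0.104) was −0.41 without Hs-578T parental replicate 1. Over all genes 21.3% passed higher and 18.2% lower, and 15.3% were called higher and 6.89% lower.

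Core proteins outside the 10 were followed too, as were the enzymes that build and modify their chains. The counts of each list are read against the shares of all genes that passed higher and lower, which were 6.91% and 10.4% in MDA-MB-231 labelled ERK5-ko, 17.5% and 23.8% in MDA-MB-231 MEK5DD, 19.7% and 19.7% in Hs-578T labelled ERK5-ko, and 6.44% and 17% in Hs-578T MEK5DD. Of 20 other core protein genes tested, 8 fell and 2 rose in Hs-578T labelled ERK5-ko, where ASPN, the leucine-rich asporin, went from 5.43 and 5.67 RPKM to 0.0812 and 0.141, and CD44, a hyaluronan receptor with chondroitin sulfate isoforms, rose from 969 and 1050.0 to 1580.0 and 1700.0. ASPN reached 0.5 RPKM only in parental and MEK5DD Hs-578T, so for it a fall was favoured by the filter. In MDA-MB-231 labelled ERK5-ko, 2 rose and 4 fell, with SRGN, the proteoglycan of secretory granules, at 23.4 and 24.2 RPKM in parental controls and 4.46 and 4.43 with the label. In MDA-MB-231 MEK5DD, 3 rose and 8 fell: SDC3 fell by 1.89 (50.2 and 49.0 to 12.9 and 13.1 RPKM) and SPOCK1 rose by 1.77. In Hs-578T MEK5DD, 2 rose and 2 fell, with ASPN rising by 1.44 and ECM2 falling by 0.69. The list median was −0.13 in Hs-578T labelled ERK5-ko and −0.06 in Hs-578T MEK5DD, against 0.01 and −0.08 over all genes.

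Of the enzymes that build and sulfate the chains, 2 passed in MDA-MB-231 labelled ERK5-ko, both higher. Of 14 enzymes of the linker and of precursors, 1 rose there (UXS1, which makes UDP-xylose, by 0.24), and 2 rose and 3 fell in MDA-MB-231 MEK5DD, where UXS1 fell by 0.69 and PXYLP1, the xylose phosphatase, rose by 0.83. In Hs-578T, 4 rose and 4 fell with the ERK5-ko label, with the sulfate transporter SLC26A2 at 0.59 and the linker galactosyltransferase B3GALT6 at −0.88, and 4 fell with MEK5DD (UXS1, −0.57). Of 18 heparan sulfate enzymes, 1 rose in MDA-MB-231 labelled ERK5-ko (HS3ST1, 0.46). In MDA-MB-231 MEK5DD 2 rose and 5 fell, from HS6ST1 (−1.89, 34.0 and 34.9 to 8.74 and 9.14 RPKM) to HS3ST3B1 (0.74). In Hs-578T labelled ERK5-ko 7 rose and 3 fell, against 19.7% of all genes in each direction, with the sulfotransferase HS3ST3A1 at 0.76 and the endosulfatase SULF1 at −0.55, and with MEK5DD 1 rose and 5 fell (HS6ST2, −0.73).

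Of 15 enzymes of chondroitin and dermatan sulfate, none passed in MDA-MB-231 labelled ERK5-ko, while 1 rose (CHSY3, 1.51) and 8 fell in MDA-MB-231 MEK5DD, against 17.5% and 23.8% of all genes, with the uronyl sulfotransferase UST at −1.32. The list median there was −0.39, against −0.01 over all genes. In Hs-578T 2 rose and 3 fell with the ERK5-ko label (CSGALNACT1, 0.48, and CHPF2, −0.53), and 1 rose and 3 fell with MEK5DD (CSGALNACT2, 0.42, and CSGALNACT1, −0.87). Hyaluronan, the chain without a core protein that versican and CD44 bind, had 10 genes tested. HAS2, a hyaluronan synthase, rose in MDA-MB-231 MEK5DD from 1.1 and 1.1 to 18.5 and 18.3 RPKM (3.56, adjusted p = 2.16e-09), in Hs-578T labelled ERK5-ko by 0.98 and in Hs-578T MEK5DD by 1.02. CEMIP, which takes part in hyaluronan breakdown, fell in MDA-MB-231 MEK5DD from 52.8 and 51.0 to 1.66 and 2.16 RPKM (−4.45, adjusted p = 9.9e-09) and rose in MDA-MB-231 labelled ERK5-ko by 0.74. HMMR fell by 1.01 in MDA-MB-231 labelled ERK5-ko and by 1.24 in Hs-578T MEK5DD, and TNFAIP6 fell by 0.60 in Hs-578T labelled ERK5-ko. In that list 1 rose and 3 fell in MDA-MB-231 labelled ERK5-ko, 3 and 3 in MDA-MB-231 MEK5DD, 4 and 2 in Hs-578T labelled ERK5-ko and 2 and 3 in Hs-578T MEK5DD.

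Of 15 proteases of core proteins, with heparanase and the glypican-releasing NOTUM, 8 fell and 4 rose in Hs-578T labelled ERK5-ko. ADAMTS9, a versican-cleaving protease, went there from at most 2 reads to 2.57 and 3.65 RPKM, and NOTUM fell by 1.61. In MDA-MB-231 labelled ERK5-ko 3 rose and 1 fell, with MMP16 at 1.11 and MMP14, a membrane-bound metalloproteinase, at −0.71. In MDA-MB-231 MEK5DD 4 rose and 5 fell, with ADAMTS1, another versican-cleaving protease, at 2.79 (2.88 and 2.78 to 22.7 and 22.6 RPKM) and ADAMTS15 at −2.35, and in Hs-578T MEK5DD none rose and 3 fell (ADAMTS15, −1.29). The share of the list that passed lower in Hs-578T labelled ERK5-ko was read against 19.7% of all genes, with list and overall medians of −0.31 and 0.01. No list was tested as a set.

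**Figure D5:**
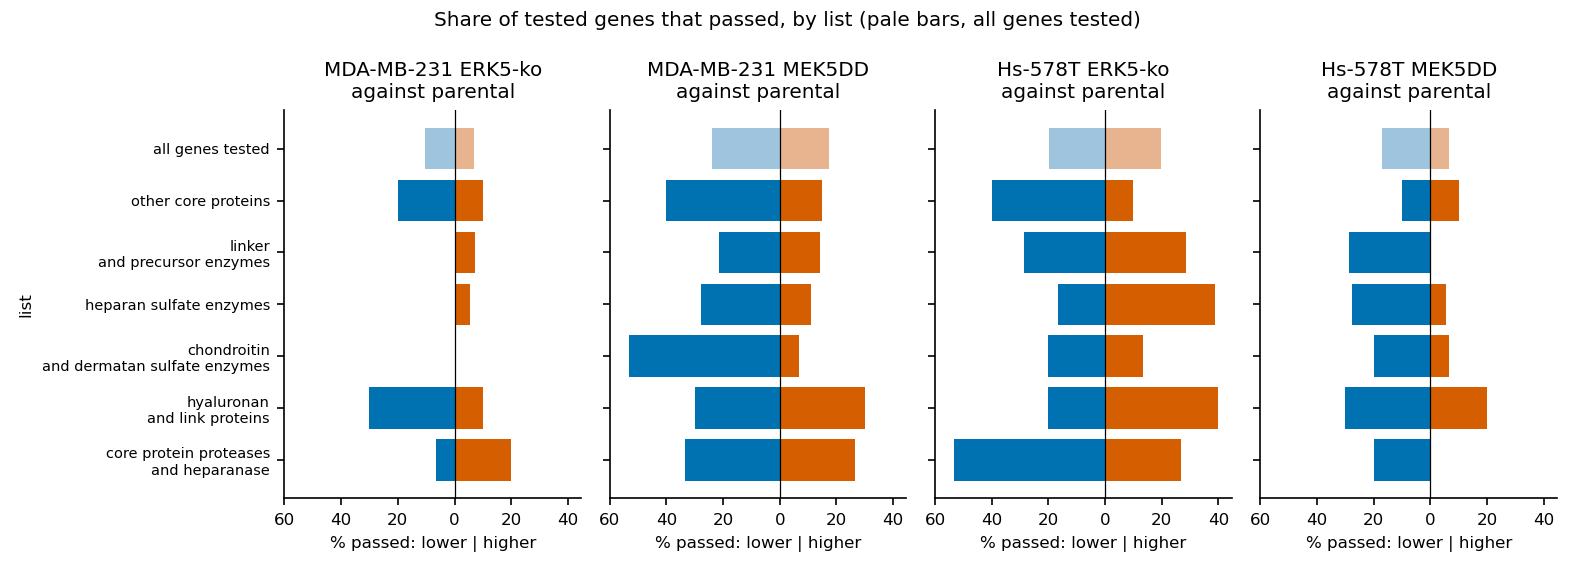
Share of the tested genes of each list that passed higher (right) or lower (left) in the 4 comparisons with parental controls; pale bars give all genes tested. No chondroitin and dermatan sulfate enzyme passed in MDA-MB-231 labelled ERK5-ko, and 8 of 15 passed lower in MDA-MB-231 MEK5DD.

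The leucine-rich relatives of decorin were looked at after the values of DCN and LUM had been seen. Of 13 genes of the family in the table, 10 were tested. In Hs-578T labelled ERK5-ko 8 passed lower: DCN, LUM, BGN, ASPN (−3.31), OMD (−2.17), PODNL1 (−1.48), ECM2 (−1.22) and TSKU (−0.62). This count includes DCN and LUM, whose values prompted it. ASPN and OMD reached 0.5 RPKM only in parental and MEK5DD Hs-578T, so for them a fall was favoured by the filter. The count of 8 can therefore not be read against the 19.7% of all genes that passed lower. PODN passed higher (0.66), from 4.67 and 4.95 to 8.17 and 7.61 RPKM, and FMOD, with at most 6 reads in any Hs-578T library, did not pass. OMD, osteomodulin, went from 2.83 and 1.74 to 0.0935 and 0.118 RPKM. OMD, ASPN and ECM2 are neighbours on chromosome 9, and ASPN, OMD and PODN had 0 reads in every MDA-MB-231 library.

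The gene most like each member was found by Pearson correlation of log2(RPKM + 0.5), centred within each line, over the 12 libraries and 12422 genes; the libraries share labels and passages, so the values describe likeness only. The closest were SFRP4 for DCN (0.993), HOXA5 for BGN (0.985), BPHL for LUM (0.983), DST for VCAN (0.959) and C20orf194 for HSPG2 (0.945). For the surface genes they were MAGEA11 for SDC1 (0.984), EIF2B1 for SDC2 (0.964), TAP1 for SDC4 (0.973), OSR1 for GPC1 (0.993) and GNAS for GPC6 (0.964). Each value is the highest of the search, so high values were favoured. For DCN and BGN, nearly absent in MDA-MB-231, they rest almost wholly on the Hs-578T libraries.

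Across the 6 groups, DCN, BGN and LUM had their 3 highest means in Hs-578T, and the parental and MEK5DD values of that line overlapped for each. GPC1 ran from parental Hs-578T (119 RPKM) through Hs-578T MEK5DD (98.7), MDA-MB-231 labelled ERK5-ko (85.6) and Hs-578T labelled ERK5-ko (81.0) to parental MDA-MB-231 (53.6) and MDA-MB-231 MEK5DD (13.5), of which the middle 3 overlapped their neighbours. SDC1 was highest in MDA-MB-231 MEK5DD (110.2) and lowest in Hs-578T labelled ERK5-ko (41.0), with overlap only between MDA-MB-231 labelled ERK5-ko and parental Hs-578T. SDC4 was highest in MDA-MB-231 labelled ERK5-ko (78.4), and all 3 Hs-578T groups lay below all 3 of MDA-MB-231. SDC2 and GPC6 had their 3 highest means in Hs-578T, and HSPG2 its highest in MDA-MB-231 labelled ERK5-ko (119) and its lowest in Hs-578T labelled ERK5-ko (41.1).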

How the data were processed

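RNA from 12 libraries, 2 from consecutive passages in each of 6 groups, was sequenced as stranded polyadenylated RNA. The submitters' processing notes name bcl2fastq, Trimmomatic 0.32, TopHat2 2.1.1, R 3.3.1, DESeq2 1.12.4 and GRCh38; the counting tool and annotation are not given in the sources used here. The authors deposited RPKM values per gene, with no counts. Samples were grouped by their labels, and 0 value columns were left unmatched.

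Library totals of 20248162 to 27791195 were recovered, and each gene was given the smallest length that made its reads whole. Every RPKM value was then a whole number of reads, within 0.01 reads, for 100.0% of 32152 genes. With totals 1% off and the same lengths this held for 0 of 500 genes. That outcome follows from keeping the lengths, so it is no test of the totals. Between 92.0% and 94.5% of those totals lay on listed genes. Counting error covers the reads only.

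Values were tested as log2(RPKM + 0.5) with limma 3.58.1 in R 4.3.3, with a mean-variance trend, on 13737 protein-coding genes with at least 0.5 RPKM in at least 2 libraries. The fit had 6 group means over 12 libraries and 6 residual degrees of freedom, and p-values were adjusted by Benjamini-Hochberg over all genes tested in each of 9 comparisons. Fold changes on this scale understate the change of low genes. Intervals are 95% intervals of the fit. An exact permutation test of 2 against 2 libraries cannot go under p = 0.333, so none is given. No fold is given for a gene with at most 4 reads in every library of both groups.

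The 10 genes, the gene lists and the tests were chosen with earlier results of these data known. All 10 were named, MAPK7 and MAP2K5 were given as label checks, and from each list the genes with the largest and smallest change that passed with a mean of at least 1 RPKM were named in each comparison with parental controls. Likeness was searched among tested genes with a mean of at least 1 RPKM. The leucine-rich family and the genes around DCN and LUM were added after values were seen.

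Alternatives were pseudocounts of 0.1 and 1, other filters, all gene types, median-ratio and quantile scaling, only the libraries of a line, other fold limits, a replicate block, limma voom on the recovered reads, each library left out, and, chosen after seeing the data, a correction for transcript length. The fit was tested on simulated data. Python 3.11.15 with numpy 2.4.6, pandas 2.3.3 and matplotlib 3.10.9 was used for the rest.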

Additional observations from a re-analysis of the deposited data

Results flagged for a closer look

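For 4 core proteins with reads in both lines the change with the ERK5-ko label differed between the lines by a test of the difference itself (limma, MDA-MB-231 minus Hs-578T, log2 scale). The difference was 1.22 for LUM (adjusted p = 0.00432), which fell in Hs-578T and had at most 30 reads in any MDA-MB-231 library, and it did not pass with limma voom on recovered reads (adjusted p = 0.12). It was 0.682 for SDC1 (adjusted p = 0.00142), which fell in Hs-578T, and 1.22 for GPC1 (adjusted p = 0.000236), which rose in MDA-MB-231 and fell in Hs-578T. It was 1.15 for HSPG2 (adjusted p = 0.0381), where neither line passed by itself and, as given above, the difference did not pass with several single libraries left out. The fitted values of 2.05 for DCN (adjusted p = 4.03e-05) and 0.841 for BGN (adjusted p = 0.00147) only restate the fall in Hs-578T, since no MDA-MB-231 library had more than 4 reads of either, and neither passed with limma voom (adjusted p = 0.39 and 0.443).

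For 5 core proteins the change with MEK5DD differed between the lines by the same test. The difference was −1.68 for GPC1 (adjusted p = 2.16e-05), −1.28 for LUM (adjusted p = 0.00309) and −1.13 for HSPG2 (adjusted p = 0.0408). LUM had at most 30 reads in any MDA-MB-231 library, and HSPG2 did not pass with several single libraries left out, as given above. The difference was 0.849 for SDC1 (adjusted p = 0.000304) and 1.59 for GPC6 (adjusted p = 2.24e-05), both of which rose in MDA-MB-231 and fell in Hs-578T. The SDC1 fall in Hs-578T did not pass with several settings, as given above. MAP2K5 RNA was 14.1-fold higher with MEK5DD in MDA-MB-231 and 1.43-fold higher in Hs-578T, and the part of that gap in these differences was not tested.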

How the results depend on the processing

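Of 1986 values that the alternatives gave for 84 log2 differences, 1851 kept their direction and their side of the threshold, 49 no longer passed, 54 came to pass and 32 changed sign.

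The number of members called higher in MDA-MB-231 labelled ERK5-ko was 1, and 2 with no fold limit or with the length correction, with or without the block, and 0 with a fold above 2. In MDA-MB-231 MEK5DD 1 was called higher, and 2 with a pseudocount of 0.1 or no fold limit and 0 with a fold above 2, while 2 were called lower, and 1 with a pseudocount of 1, median-ratio scaling, quantile normalization or the length correction, and 4 with no fold limit. Between ERK5-ko and MEK5DD in MDA-MB-231, 0 were called lower, and 1 with a pseudocount of 0.1 and 2 with no fold limit. With no fold limit 5 were called lower in Hs-578T labelled ERK5-ko in place of 2, 3 in Hs-578T MEK5DD in place of 0, and 5 between ERK5-ko and MEK5DD in Hs-578T in place of 3. In that last comparison 2 were called higher, and 1 with median-ratio scaling or the length correction and 0 with a fold above 2. Between the parental lines 1 was called higher, and 0 with median-ratio scaling, quantile normalization, a fold above 2 or the replicate block. For the difference between lines, 6 were called higher with the ERK5-ko label, and 3 with limma voom on recovered reads, where DCN (1.45, adjusted p = 0.39), BGN (0.98, adjusted p = 0.443) and LUM (1.31, adjusted p = 0.12) did not pass, and 2 were called higher with MEK5DD, and 1 with a fold above 2.

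With each library left out in turn, the number called lower ranged from 1 to 2 in MDA-MB-231 MEK5DD, and the number called higher from 0 to 1 in Hs-578T labelled ERK5-ko and from 0 to 2 in Hs-578T MEK5DD. For the differences between lines, 0 to 1 were called lower with the ERK5-ko label and 1 to 3 with MEK5DD.

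These log2 values changed sign, all of them short of the threshold except VCAN in Hs-578T MEK5DD. VCAN in MDA-MB-231 labelled ERK5-ko was 0.0273 with quantile normalization and 0.0291 with the length correction, with or without the block. In Hs-578T labelled ERK5-ko, GPC6 was −0.017 with median-ratio scaling, −0.0212 with quantile normalization and −0.124 with the length correction, with or without the block. In Hs-578T MEK5DD, BGN was 0.0122 with median-ratio scaling and 0.0193 with the length correction, and SDC4 was 0.00814 with the latter, with or without the block. SDC1 between the parental lines was −0.11 with median-ratio scaling and −0.00376 with the length correction and the block. For the MEK5DD difference between lines, DCN was 0.0791 with a pseudocount of 0.1 and 0.595 with limma voom. With each library left out in turn, values in Hs-578T labelled ERK5-ko ran from −0.127 to 0.147 for GPC6, from −0.14 to 0.233 for SDC2, from −0.0146 to 0.22 for SDC4 and from −0.137 to 1.02 for VCAN. In Hs-578T MEK5DD they ran from −0.197 to 0.0393 for BGN, from −0.0908 to 0.576 for LUM, from −0.214 to 0.0212 for SDC4 and from −0.55 to 0.604 for VCAN. Between the parental lines HSPG2 ran from −0.125 to 0.949. The ERK5-ko difference between lines ran from −0.304 to 0.0691 for SDC2 and from −1.10 to 0.0549 for VCAN, and the MEK5DD difference from −0.00925 to 0.227 for BGN, from −0.41 to 0.0824 for DCN, from −0.0154 to 0.357 for SDC2 and from −0.228 to 0.928 for VCAN. The cause was not tested.

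Over all genes, limma voom called 324 lower in place of 147 in MDA-MB-231 labelled ERK5-ko, 788 in place of 449 in Hs-578T labelled ERK5-ko and 458 in place of 204 in Hs-578T MEK5DD. With only the libraries of a line, 1596 genes passed higher and 2469 lower in MDA-MB-231 labelled ERK5-ko in place of 949 and 1430, and 267 and 633 in Hs-578T MEK5DD in place of 884 and 2329.

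Libraries share replicate numbers across groups, which give the order of passages; whether same-numbered libraries shared a batch is not given in the sources used here. Deviations of same-numbered libraries correlated with r from 0.107 to 0.541 in the 6 pairs of groups. With the replicate number as a block, GPC6 in MDA-MB-231 labelled ERK5-ko passed (0.33, adjusted p = 0.0468; from 0.00861 to 0.0468 in the alternatives where it passed), SDC4 between the parental lines was no longer called, and no other call of a member changed. Depth limits DCN, BGN, LUM and VCAN in MDA-MB-231, with at most 39 reads a library.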
